A study of Mus musculus with 2 samples.

Results

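The sites described here are the Tia1 crosslinks that lie within the last 100 nucleotides (nt) of the longest annotated 3′UTR of a protein-coding mouse gene, where that 3′UTR spans at least 300 nt once spliced. They were taken from the pooled list of low-FDR sites (FDR, false discovery rate, under 0.05) on the mouse build GRCm38, on the strand of the gene and outside any coding sequence. Of 422150 pooled sites, 25937 met this rule (6.14%), and they carried 64441 of 867271 cDNAs (7.43%). A cDNA is 1 unique reverse transcript, and the nucleotide just before the first base of its read is taken as the crosslinked one. The crosslinks were mapped by iCLIP, in which UV light links a protein to its RNA and the protein is immunoprecipitated, in 1 group of 2 replicates, both of splenic B cells from C57BL/6 mice. The cells had received the bacterial lipopolysaccharide LPS at 10 µg/ml during 48 h in culture, and only cytoplasm was extracted. No sample without LPS, without crosslinking or with another antibody was analysed here, so nothing here gives the level of background binding. The study's titles and methods speak of Tia1, and its list of antibodies gives one against Tia1 for the iCLIP. The labels differ from this and give an antibody against Tial1, a close relative. The protein is called Tia1 here, as in the titles.

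The libraries differed in depth, with 639108 cDNAs (342732 sites) in replicate 1 and 165081 (93512 sites) in replicate 2. At the sites near the 3′ end, replicate 1 had 45546 cDNAs at 20996 sites and replicate 2 had 15792 cDNAs at 8172 sites. A further 2136 of the 25937 sites were called on the pooled list but in neither replicate alone. Most sites were thin, with 57.6% resting on 1 cDNA, while the 2889 sites with at least 5 cDNAs held 44.7% of the cDNAs. Another 126 sites, with 313 cDNAs, fell in the longest 3′UTR of several genes and were left out of the values below, which leaves 25811 sites and 64128 cDNAs. With 2 samples of 1 group, an exact test over samples cannot go below p = 0.5, so values are given per replicate and no test was run. B cell genes were present as labelled. All 8 B cell markers had 3′UTR sites, and these summed to 5505 and 1454 cDNAs (replicates 1 and 2). The 7 T cell markers with a long enough 3′UTR summed to 4 and 0 cDNAs, the 4 myeloid markers to 29 and 6, and the 2 erythroid markers to none.

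Tia1 is an RNA-binding protein that prefers stretches rich in U and is best known as a component of stress granules, where mRNAs are held out of translation. Nearly all mRNAs end in a poly(A) tail. The cleavage machinery recognises a polyadenylation signal, most often AAUAAA or its variant AUUAAA, which lies a short way upstream of the cut, and U-rich sequence on either side of the signal can aid its use. Once the tail has been added, the sequence between the signal and the tail is the last piece of the 3′UTR and is exported with the mRNA to the cytoplasm.

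The sequences below surround the most heavily crosslinked nucleotide near the 3′ end in 11 genes. They are shown because they span the kinds of sequence seen there, from unbroken U runs to mixed sequence, and because those of Ly6d and Rabep2 reach into the signal itself. Each is written 5′ to 3′ with t for U, covers 29 nt of the transcript strand on GRCm38 (GENCODE release M21 transcripts), and has the crosslinked nucleotide in capitals.
Trp53, chr11:69591803-69591831, plus strand: ctctttttttttttTttacccctttttat
Ly6d, chr15:74762071-74762099, minus strand: tccagttattttttTtctacttggaaata
Tmsb4x, chrX:167207151-167207179, minus strand: tcagagtgccatttTtttttgttcaaaca
Sp100, chr1:85709923-85709951, plus strand: gtgttggattttttTtctatttactcttt
Tubb5, chr17:35833963-35833991, minus strand: ctttttttttttttTtcatattgaaaagt
Siah2, chr3:58674999-58675027, minus strand: ttttgtttttatctTtacatacgcgcaca
Il2rg, chrX:101264431-101264459, minus strand: ttctccctccctttTtctacctatgattc
Nfkbia, chr12:55489441-55489469, minus strand: tgttggtaattattTtggtacttctaaga
B2m, chr2:122153041-122153069, plus strand: tggctacttctgctTttgttacttttact
Arf6, chr12:69373712-69373740, plus strand: tggcttattttgcaTtcatgcagactatg
Rabep2, chr7:126445860-126445888, plus strand: gacttttctgtcatTtattttcaataaat
All of these lie in annotated 3′UTR exons. In the Trp53 and Tubb5 windows the crosslink sat inside a long U run, in the Il2rg window within a pyrimidine tract, and in the Arf6 window beside only short U runs. The Rabep2 window holds the whole signal aataaa near its end, and the first base of that signal lies 8 nt downstream of the crosslinked nucleotide. The Ly6d window ends in the opening bases of its signal, which starts 11 nt downstream.

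The first question was how densely the 3′ end was crosslinked relative to the remainder of the same 3′UTRs. Over the 6338 genes with any pooled 3′UTR site, the last 100 nt carried 10.1 cDNAs per 100 nt and the remainder 4.57, a ratio of 2.22 (exact 95% interval 2.20 to 2.24, which covers counting error only). The ratio was 2.11 in replicate 1 and 2.91 in replicate 2 (2.51 ± 0.563, SD, n = 2). Put as shares, the last 100 nt held 9.70% of replicate 1's 3′UTR cDNAs and 12.9% of replicate 2's on 4.85% of the 3′UTR length. Genes with short 3′UTRs weigh more in the end window. When each gene's cDNAs were instead spread evenly along its own 3′UTR, the last 100 nt held 1.35 times the cDNAs so computed (1.30 in replicate 1 and 1.53 in replicate 2, 1.42 ± 0.158, SD, n = 2). The 100 nt next to the stop codon were also dense, with 9.03 cDNAs per 100 nt. Counted per 100 U rather than per 100 nt, the last 100 nt had 25.5 cDNAs, the first 100 nt 28.2 and all of the 3′UTR outside the last 100 nt 12.5. So the excess over that remainder was also present per U, at a ratio of 1.95 in replicate 1 and 2.60 in replicate 2.

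Summed over genes, the shallower library leaned more to the 3′ end. Replicate 2 supplied 25.7% of the replicates' cDNAs in the last 100 nt (exact 95% interval 25.4 to 26.1), 23.4% in the first 100 nt and 20.1% in all of the 3′UTR outside the last 100 nt (19.995 to 20.2). The depth of each library before site calling is unknown, and the part that depth and the FDR filter play in this difference was not tested. The lean was also present against an even spread within each gene, at 1.30 times in replicate 1 and 1.53 times in replicate 2. It was not seen when genes were counted. Among 1444 genes with at least 20 3′UTR cDNAs in each replicate, the share was higher in replicate 2 in 425 and in replicate 1 in 418. A small share is more easily missed in the shallower library, and the part of this in the counts of genes was not tested.

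Within the last 100 nt the crosslinks were unevenly placed. The cDNA-weighted median lay 61 nt from the end, counting the last nucleotide as 1, with quartiles at 47 and 79 nt (medians 62 in replicate 1 and 60 in replicate 2). The span from 31 to 70 nt held 58.2% of the cDNAs. Among consecutive bins of 10 nt counted from the end, the densest was 51 to 60 nt, with 10731 cDNAs, or 12.0 per 100 nt in replicate 1 and 4.29 in replicate 2. Density then fell on both sides, to 11.1 per 100 nt (pooled) at 91 to 100 nt from the end, just inside the window, and 10.2 at 101 to 110 nt, just outside it. From 191 to 200 nt it was 6.21. Towards the end the fall was abrupt. The 10 nt from 21 to 30 had 5.28 cDNAs per 100 nt and the last 20 nt held 451 cDNAs in all, 0.721% of those of replicate 1 and 0.541% of those of replicate 2. Leaving the last 20 nt out raised the density ratio to 2.76, an alternative chosen after seeing the data.

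**Figure D1:**
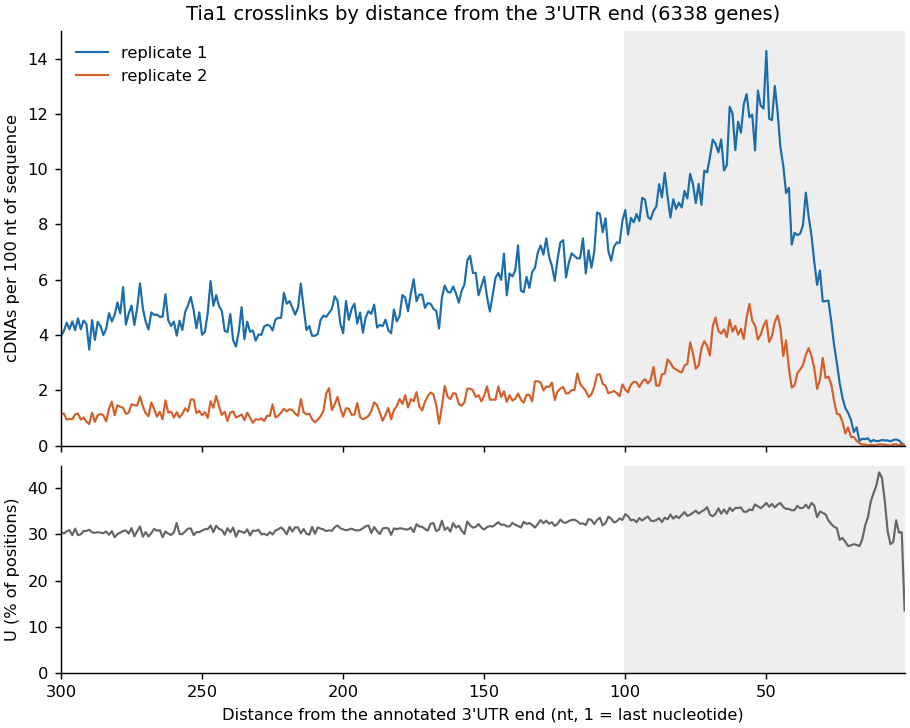
Upper panel, cDNAs per 100 nt of sequence (y axis) at each distance from the annotated 3′UTR end in nt (x axis, 1 is the last nucleotide, the end is on the right) over 6338 genes, with 1 line per replicate and the last 100 nt shaded. Lower panel, the percentage of those positions that are U. Both replicates climb from about 150 nt, are highest in the span from 31 to 70 nt and are near 0 in the last 20 nt, where U is still present.

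U was not scarce where the cDNAs were missing. The positions 1 to 10 nt and 11 to 20 nt from the end were 31.7% and 32.2% U, close to the 30.3% of the 3′UTRs outside the last 100 nt, and yet carried 0.538 and 1.31 cDNAs per 100 U against 40.7 at 51 to 60 nt. An iCLIP cDNA runs from the crosslink towards the 3′ end of the RNA, so a crosslink close to the tail leaves few genomic bases to map. The smallest length mapped is not stated, and its part in the empty last 20 nt was not tested. Past the annotated end the signal stopped. In 5858 genes whose next 100 genomic nt hold no annotated exon, those nt carried 531 cDNAs in replicate 1 and 83 in replicate 2, against 41164 and 14371 in the last 100 nt of the same genes.

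The position of the polyadenylation signal was examined next. Searching the last 50 nt on the transcript strand for AAUAAA, or else AUUAAA, found a signal in 81.8% of the 6338 genes, AAUAAA in 66.5% and AUUAAA in 15.3%, with its first base at a median of 24 nt from the end (quartiles 21 and 27). Genes with a crosslink in the last 100 nt had a signal more often, in 88.2% of 2620 genes, than the 3718 genes whose 3′UTR sites all lay farther upstream, in 77.2%. Annotated ends without a signal may be less used in these cells, and end use was not measured here.

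In the genes with a signal, nearly every cDNA near the end lay upstream of it. The share was 99.1% pooled (exact 95% interval 99.002 to 99.2), 99.1% in replicate 1 and 99.3% in replicate 2, whereas 74.9% of the positions, weighted by the cDNAs of each gene, lay upstream. Inside the signal lay 244 of the 56676 cDNAs (0.431%) on 6.00% of the positions, and downstream of it 275 (0.485%) on 19.1%. Positions inside and downstream of the signal lie close to the RNA end, where a crosslink leaves few genomic bases to map. The part of this limit in these shares was not tested. AAUAAA and AUUAAA genes were alike in this, at 99.2% and 98.4%. The median distance upstream of the first base of the signal was 36 nt (quartiles 22 and 54), 37 nt in replicate 1 and 35 nt in replicate 2. The single densest position was 29 nt upstream in both replicates. The 40 nt upstream of the signal held 55.2% of the cDNAs of replicate 1 and 58.9% of those of replicate 2, on 40.02% of the positions.

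Up to about 20 nt before the signal, density and U content climbed together, and closer to the signal they parted. From the bin 70 to 61 nt upstream to the bin 30 to 21 nt upstream, U rose from 33.8% to 36.1% of positions and the pooled density from 12.9 to 19.2 cDNAs per 100 nt, each higher in every successive bin. From 30 to 21 nt upstream of the signal, 36.1% of positions were U and the density was 13.6 cDNAs per 100 nt in replicate 1 and 4.81 in replicate 2. From 10 to 1 nt upstream, 36.0% were U and the density was 6.07 and 2.34. From 10 to 19 nt downstream of the first base, past the signal, 37.3% were U and the density was 0.182 and 0.0364. Distance from the signal and distance from the RNA end cannot be told apart in these values, since the signal keeps a near-constant distance from the end.

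**Figure D2:**
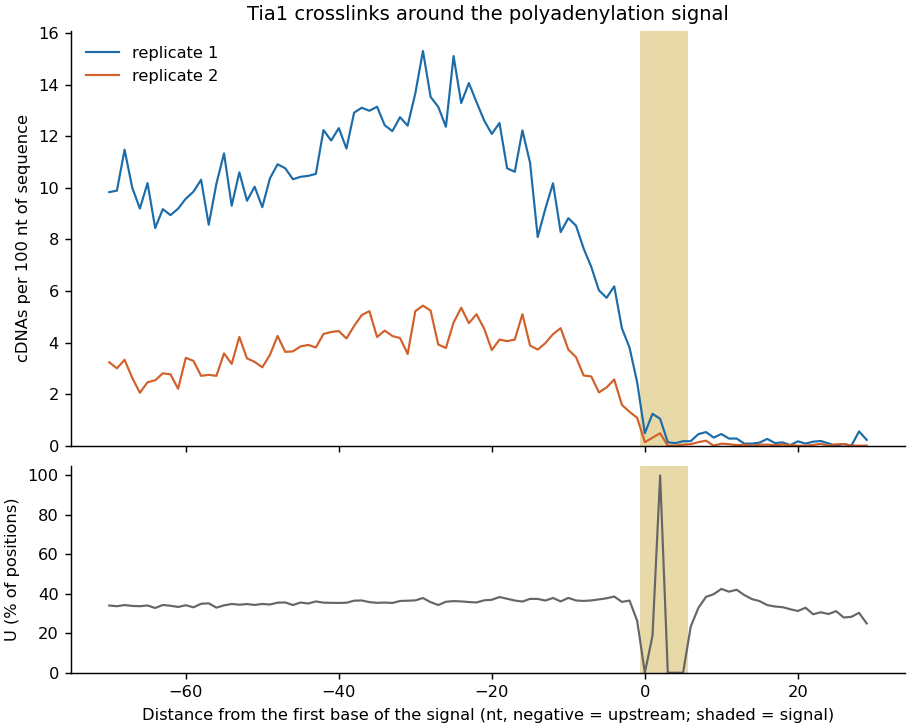
Upper panel, cDNAs per 100 nt of sequence (y axis) by distance in nt from the first base of the polyadenylation signal (x axis, negative is upstream, the signal is shaded), with 1 line per replicate. Lower panel, the percentage of positions that are U, which inside the signal is set by the search itself. Both replicates are highest 29 nt upstream of the signal and fall to near 0 at it, while U in bins of 10 nt upstream of the signal lies between 33.8% and 37.1%.

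The same held gene by gene, under the same limit on mapping close to the RNA end. Of 1292 genes with at least 10 pooled cDNAs near the end, 1145 had a signal, and the most crosslinked nucleotide lay upstream of it in 1141, inside it in none and downstream in 4. It lay at a median of 39 nt upstream (quartiles 25 and 57) and was a U in 97.9% of these genes. In the 147 genes without either signal it lay at a median of 61 nt from the end, against 65 nt in those with one.

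The crosslinked nucleotides sat in parts of the 3′ end richer in U than its average position. The crosslinked base itself was U for 84.2% of the cDNAs of replicate 1 and 89.2% of those of replicate 2, whereas 39.03% and 39.7% of all last-100-nt positions of the same genes, weighted by their cDNAs, were U. In the 31 nt centred on the crosslink the U share was 47.4% and 49.5%, which is 8.38 and 9.83 percentage points above all positions of the same windows (9.10 ± 1.02, SD, n = 2). It was higher in 2034 of 2290 genes of replicate 1 and 1146 of 1252 genes of replicate 2. With 11 nt around the crosslink in place of 31, the pooled difference of 8.52 points became 17.3. The crosslinked base counts in its own window, and the comparison is with all positions rather than with U positions alone. How far UV crosslinking itself favours U was not measured here, so its part in these values was not tested. The 3′ end was not particular in its U share. Crosslinks in all of the 3′UTR outside the last 100 nt had 46.8% and 51.0% U in their 31 nt, which differs from the values near the end by less than the spread between the replicates.

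Among all words of 5 nt centred on the crosslink, UUUUU was the most frequent, at 12.8% of the cDNAs of replicate 1 and 16.4% of those of replicate 2, against 2.36% and 2.85% of all positions of the same windows. UUUUA followed at 6.16% and 6.61%, then AUUUU at 4.64% and 5.54%. UUUUC had the largest ratio to its frequency over all positions among these 20 words, 6.71 in replicate 1 and 7.44 in replicate 2. Of the 20 most frequent words, 18 were shared by the replicates. Words overlap along a U run, so they are not separate motifs. All 20 words have U at the centre, which is the crosslinked base, while the comparison counts words at all positions. Part of each ratio therefore repeats the U share of the crosslinked base.

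Whether a gene was crosslinked near its end varied with the longest U run there. Of 1992 genes whose last 100 nt had no run over 3 U, 19.5% had a pooled site there and their last 100 nt held 3.55% (replicate 1) and 3.34% (replicate 2) of their 3′UTR cDNAs. With runs of 4 or 5 U the shares were 9.14% and 11.5%, and with 6 or 7 U they were 16.3% and 22.0%. In the 283 genes with a run of at least 8 U, 71.7% had a site and the shares were 23.5% and 35.9%. So the order over the 4 classes was the same in both replicates, and the replicates lay farther apart with longer runs. The median 3′UTR length of the 4 classes lay between 1519.5 and 1641 nt. How reads within long U runs were mapped is not stated.

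Crosslinking near the end also varied with the length of the 3′UTR. A site in the last 100 nt was found in 62.5% of genes with a 3′UTR of 300 to 599 nt, 47.7% at 600 to 1199 nt, 37.2% at 1200 to 2399 nt and 30.7% above that. Set against the share of length, computed within each gene, the last 100 nt held 1.21 and 1.40 times (replicates 1 and 2) the cDNAs of an even spread in the shortest class. The values were 1.31 and 1.46 in the next class, 1.24 and 1.47 in the third and 1.62 and 2.25 in the longest, so the longest 3′UTRs had the highest value in both replicates.

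**Figure D3:**
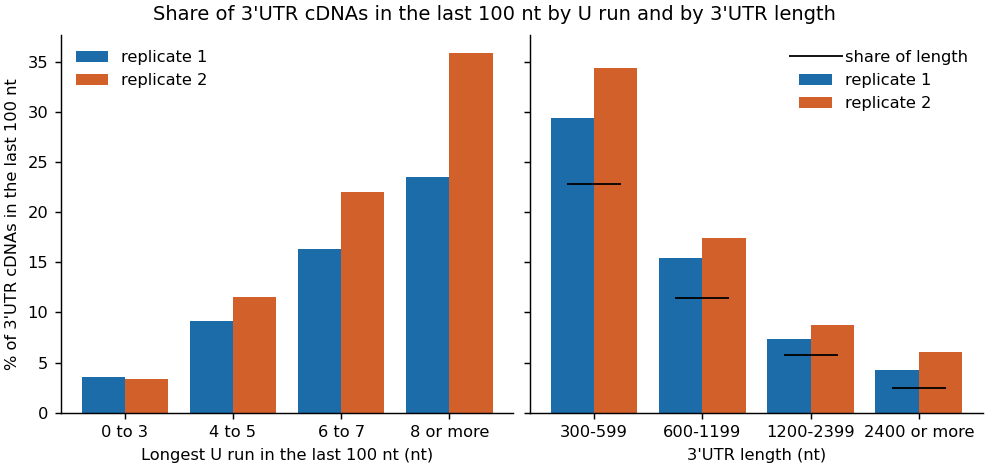
Percentage of the 3′UTR cDNAs that lie in the last 100 nt (y axis), per replicate, by the longest U run of those 100 nt (left) and by 3′UTR length in nt (right, horizontal marks give the share of length). In both replicates the percentage climbs from 3.55% and 3.34% to 23.5% and 35.9% with the U run, and all length classes lie above their share of length.

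The replicates were then compared at the single nucleotide. Of the 25811 sites, 5337 were called in both replicates (20.7%), against 14.6% of the sites of the same 3′UTRs outside the last 100 nt (percent called in both, the background) and 20.8% in the first 100 nt. The count of cDNAs carries much of this, because a site with 1 pooled cDNA cannot be in both. At sites with 2 to 4 pooled cDNAs, 35.7% were in both near the end and 29.4% in the remainder. At 5 to 9 cDNAs the values were 79.6% and 75.5%, and at 10 or more 97.1% and 96.1%. Of the sites of replicate 2 near the end, 65.7% were also called in replicate 1, close to the 64.6% of its other 3′UTR sites. Of those of replicate 1, 25.5% were also called in replicate 2, against 17.8% of its other 3′UTR sites.

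At the level of genes, 2620 of 6338 genes with a 3′UTR site had one in the last 100 nt (41.3%), 2290 in replicate 1 and 1252 in replicate 2. Both replicates shared 1175 (18.5% of 6338), which is 93.8% of the genes of replicate 2 and 51.3% of those of replicate 1. Requiring at least 5 cDNAs in each replicate left 705. Over the 1444 genes with at least 20 3′UTR cDNAs in each replicate, the share of a gene's cDNAs in the last 100 nt differed by at most 10 percentage points in 85.3%. It was higher in replicate 2 in 425, higher in replicate 1 in 418 and equal in 601, of which 589 had none in either. Across these genes the shares of the replicates had Pearson's r = 0.951 and Spearman's rho = 0.858, as a description, since the genes are not independent replicates and each share has its own gene's 3′UTR in common.

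Genes differed widely in how much of their binding lay at the end. Among the 2468 genes with at least 50 pooled 3′UTR cDNAs, 1087 had none in the last 100 nt (44.0%), 165 had at least 50% and 15 had all of them there. The median share was 2.00% on a median 5.46% of length, and 919 genes were above their own share of length (37.2%). The genes with a site in the last 100 nt had a median 3′UTR of 1231.5 nt, and those without 1824.5 nt. The 10 genes with most cDNAs held 9.02% of all cDNAs near the end and the 100 genes with most held 34.8%.

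The 20 genes with most cDNAs near the end included genes of the cytoskeleton, antigen presentation, cytokine and Toll-like receptor signalling, and RNA processing. Tmsb4x, which encodes thymosin beta 4, a peptide that holds actin monomers, led with 573 cDNAs in replicate 1 and 495 in replicate 2. These were 37.5% and 52.6% of its 3′UTR cDNAs on 24.5% of the length. Its cDNAs formed separate peaks, the highest 73 nt from the end with 34 and 46 cDNAs, which is the U run in the Tmsb4x sequence above. Sp100, a component of nuclear bodies, had 403 and 293 cDNAs near the end, 68.8% and 93.6% of its 3′UTR total on 11.4% of the length. Ly6d, a lymphocyte surface protein, had 321 and 323, which were 87.7% and 100% of its total on 33.3% of the length. It also held the site with most cDNAs of all, 30 nt from the end and 11 nt upstream of its AAUAAA, with 33 cDNAs in replicate 1 and 69 in replicate 2. Ly6d, in which the deeper library did not have more cDNAs, thus differed from the other 19 genes, all of which had more in replicate 1.

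Among signalling genes, Il2rg, the common gamma chain of several interleukin receptors, had 259 and 150 cDNAs near the end, 91.5% and 96.8% of its 3′UTR total. Unc93b1, which carries Toll-like receptors to endosomes, had 265 and 122 (74.2% and 100%). Nfkbia, the inhibitor IκBα of NF-κB, had 235 and 85 (68.1% and 76.6%), with its highest site 24 nt upstream of an AUUAAA. In each of these the share was above the gene's share of countable length, which was 21.1%, 25% and 19.5%. The pooled share was above it in 18 of the 20 genes, which were picked by their counts near the end. In Unc93b1 part of the 714 nt 3′UTR coincides with coding sequence or another gene's 3′UTR and was left out. Cd53, a tetraspanin of leukocytes, had 269 and 151 cDNAs (36.0% and 54.3%), and Siah2, a ubiquitin ligase, had 259 and 135 (49.5% and 71.4%).

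B2m, the light chain of class I histocompatibility molecules, had many cDNAs near its end, 417 and 215, but these were only 11.8% and 14.9% of its 3′UTR total on 22.3% of the length. Actb, which encodes beta-actin, was the other gene of the 20 below its share of length, with 302 and 71 cDNAs (7.82% and 3.68% on 14.6%). H2-Aa, a class II histocompatibility chain, had 295 and 54 cDNAs (39.4% and 39.1% on 33.3%). Actb, Tmsb4x, Tubb5 and the histocompatibility genes have near-identical copies in the genome, and the counting of reads that match several places is not stated, so their counts are uncertain.

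Myc, the transcription factor, had 289 and 97 cDNAs near the end (25.6% and 20.04%), close to its 21.5% of length. Rcc2, a regulator of chromosome segregation, had 265 and 155 (51.6% and 83.3%) on 4.96% of the length. The RNA-processing genes were Hnrnpl, a splicing regulator, with 330 and 106 cDNAs (35.8% and 31.8%), Dhx9, an RNA helicase, with 225 and 104 (54.7% and 55.0%), and Eftud2, a component of the spliceosome, with 185 and 128 (100% in both). In Eftud2 most of the 328 nt of the 3′UTR coincide with coding sequence or another gene's 3′UTR and were left out, so the last 100 nt made up 87.0% of the positions that could be counted. Arf6, a small GTPase of membrane traffic, had 459 and 189 cDNAs (38.3% and 44.8%), Pdia4, a protein-folding enzyme of the endoplasmic reticulum, 259 and 119 (36.3% and 47.2%), Tubb5, a beta-tubulin, 256 and 117 (26.9% and 32.7%), and Tmem123, a membrane protein, 221 and 96 (25.9% and 38.2%).

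Of these 20 genes, 16 had AAUAAA in the last 50 nt, 1 had AUUAAA and 3 had neither, namely Arf6, Pdia4 and Eftud2. Among the 2620 genes with a site near the end, 72.9% had AAUAAA. The highest site was a U in all 20 and lay between 29 and 100 nt from the end. The longest U run had a median of 6 nt, against 4 nt over all 6338 genes, and 9 of the 20 had a run of at least 8 U, as did 4.48% of all genes. The share near the end was higher in replicate 2 in 15 genes, higher in replicate 1 in 4 and equal in 1.

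**Figure D4:**
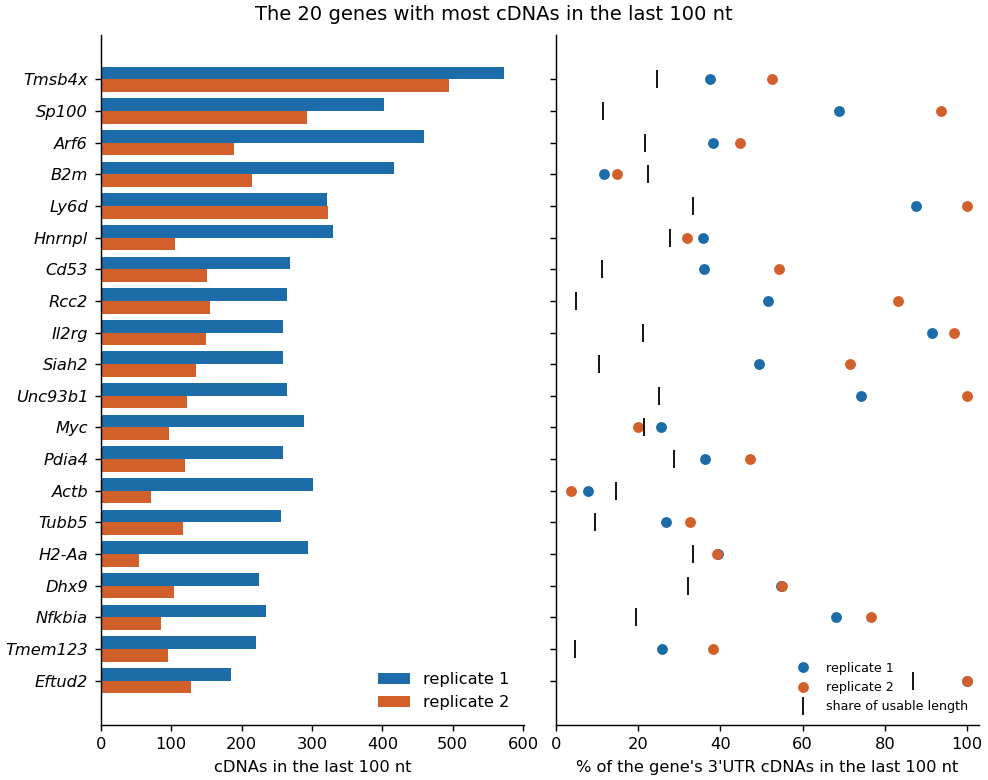
Left, cDNAs in the last 100 nt (x axis, from 0) in each replicate for the 20 genes with most pooled cDNAs there. Right, the percentage of each gene's 3′UTR cDNAs that lie in the last 100 nt in each replicate (points), beside the percentage of its countable 3′UTR length (vertical ticks). Counts run from 1068 pooled cDNAs in Tmsb4x to 313 in Eftud2, and 18 of the 20 pooled shares are above the share of length, B2m and Actb being below. The genes were picked by their counts near the end, which favours high shares. Of the 2468 genes with at least 50 pooled 3′UTR cDNAs, 37.2% were above their share of length.

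The 10 single nucleotides with most cDNAs fell in 7 genes, and 4 of them were in the U run of Tmsb4x, from 69 to 73 nt from its end, with 55 to 80 pooled cDNAs each. Besides the Ly6d site, the others were in Siah2 (42 cDNAs in replicate 1 and 16 in replicate 2, 76 nt from the end), Arf6 (37 and 17, 58 nt), B2m (29 and 25, 29 nt), Il2rg (21 and 33, 68 nt) and Eftud2 (34 and 18, 55 nt). Replicate 2 had more cDNAs than the deeper replicate 1 at the Ly6d, Il2rg and Tmsb4x sites.

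In another set of genes the end was the only part of the countable 3′UTR with sites. The 10 named by the rule (the highest share, with at least 50 pooled 3′UTR cDNAs) had all their cDNAs there in both replicates. They are part of the 15 genes with a pooled share of 100%. Besides Eftud2 they were AI467606 with 112 and 46 cDNAs, Pcnx3, a membrane protein, with 69 and 27, and Bbc3, which encodes the p53-induced death protein Puma, with 54 and 31. Gadd45b, a stress-response gene, had 53 and 24, Mitd1, which acts in the final separation of daughter cells, 52 and 25, and Rabep2, an endosomal protein, 54 and 18. Eif1, a start-codon selection factor, had 53 and 14, Fpgs, a folate enzyme, 35 and 31, and Nfs1, which supplies sulfur to iron-sulfur clusters, 40 and 22. Their highest sites lay 28 to 57 nt from the end. AAUAAA was found in 8 of the 10, near the 72.9% of all genes with a site in the last 100 nt. In Nfs1, as in Eftud2, part of the 3′UTR was left out. The last 100 nt were 25.6% of the countable positions of Nfs1.

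The opposite pattern was found in 280 of the 795 genes with at least 200 pooled 3′UTR cDNAs, which had no site in the last 100 nt. The 5 with most cDNAs were Nucks1, a nuclear DNA-binding protein, with 3489 pooled cDNAs, Serp1, a protein of the endoplasmic reticulum, with 2622, the histone gene Hist1h4d with 1815, Mef2c, a transcription factor of B cell and muscle development, with 1727, and Celf2, an RNA-binding protein, with 1421. Their nearest sites to the annotated end were 109 nt away in Nucks1, 262 in Mef2c, 607 in Hist1h4d, 1856 in Serp1 and 2190 in Celf2. Replication-dependent histone mRNAs such as that of Hist1h4d normally end at a stem-loop close to the stop codon, and its cDNAs had a median distance of 806 nt from the end of an 822 nt 3′UTR. The longest annotated end need not be the one used in these cells, and the use of ends was not measured. Since the list holds only sites that passed the FDR filter, a missing site is not a measured absence of binding.

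Of the 9 genes singled out by the study, a list chosen with these samples in hand, 3 had sites in the last 100 nt. Trp53, which encodes the tumour suppressor p53, had 159 of 286 cDNAs of replicate 1 and 95 of 106 of replicate 2 there (55.6% and 89.6%). These lay on 20.6% of the countable length, as part of its 565 nt 3′UTR was left out. Its highest site over both replicates lay 57 nt from the end and 35 nt upstream of AAUAAA, with 18 cDNAs in replicate 1 and 3 in replicate 2, inside a run of 14 U. The highest of replicate 2 alone lay 65 nt from the end, with 9 and 11 cDNAs. H2-K1, a class I histocompatibility heavy chain, had 121 and 29 cDNAs there (56.3% and 50.0%), with its highest site 22 nt upstream of AAUAAA. Dcp1a, a decapping factor, had 4 and 0 cDNAs. Ccnd2 with 1348 pooled 3′UTR cDNAs, Hif1a with 444, Tia1 with 97, Tial1 with 81 and Cdkn1a with 37 had none in the last 100 nt, and Gadd45a had 1 pooled 3′UTR cDNA, which was not near the end. Each of the 6 had AAUAAA in its last 50 nt. Their longest U run there was 3 to 5 nt, against 14 in Trp53 and 7 in H2-K1 and Dcp1a. Over all 6338 genes the median was 4 nt. A site near the end was found in 19.5% of genes with runs up to 3 U and in 47.0% with 4 or 5 U.

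**Figure D5:**
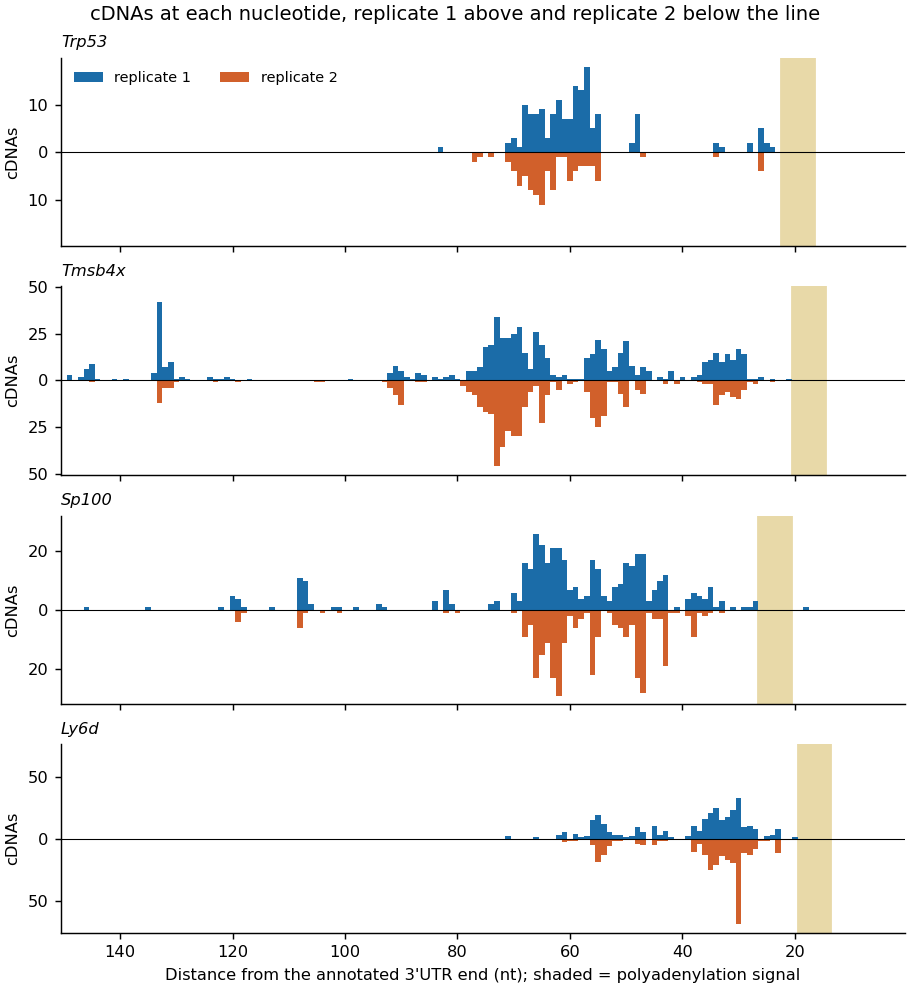
cDNAs at each nucleotide (y axis, replicate 1 above and replicate 2 below the line) by distance in nt from the annotated 3′UTR end (x axis) for Trp53, Tmsb4x, Sp100 and Ly6d, with the polyadenylation signal shaded. The clusters of both replicates lie upstream of the signal and overlap, but the highest nucleotide within the last 100 nt is the same in both replicates in Tmsb4x (73 nt) and Ly6d (30 nt) and differs in Trp53 (57 nt in replicate 1, 65 nt in replicate 2) and Sp100 (66 and 62 nt).

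Gene groups were described by how many members had a site near the end and by their median share, beside 41.3% of genes with a site, 18.5% with one in both replicates, and a median share of 0% on 6.39% of length over all 6338 genes with a 3′UTR site. Of 15 measured 3′ end processing factors, the proteins that recognise the signal, cut and add the tail, 10 had a site near the end but only 3 did in both replicates (20%), and the median share was 2.08% on 5.14% of length. The counts were small, with 28 and 5 cDNAs in Cstf3, a cleavage stimulation factor subunit, 28 and 5 in Papola, the main poly(A) polymerase, and 13 and 6 in its relative Papolg. Of 24 RNA-binding regulators 11 had a site and 4 had one in both replicates (16.7%), with a median share of 0% on 4.60% of length. Zfp36l1 with 112 and 31 cDNAs and Zfp36 with 101 and 21, which promote the decay of AU-rich mRNAs, and Khsrp with 79 and 41 led this list. In both lists the share found in both replicates was near that of all genes.

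Members of other groups were found more often. Since the lists were drawn up with earlier results of these data known, these counts are a description only. Of 11 measured actin genes and actin regulators 9 had a site, all 9 in both replicates (81.8%), with a median share of 10.2% on 9.17% of length. After Tmsb4x and Actb, Capzb, which caps actin filaments, had 98 and 44 cDNAs. Of 12 antigen presentation genes 7 had a site in both replicates (58.3%), with a median share of 19.4% on 18.2% of length. Beside B2m and H2-Aa, H2-Ab1, the partner chain of H2-Aa, had 154 and 68 cDNAs, 84.7% of its pooled 3′UTR total. Of 18 B cell identity and receptor signalling genes 12 had a site and 10 had one in both replicates (55.6%), while their median share of 4.29% lay below their 5.54% of length. Pax5, the transcription factor that maintains B cell identity, had 139 and 70 cDNAs near the end, which is 1.51% of its 3′UTR length, and Pou2af1 and Ebf1, further B cell factors, had 115 and 15, and 60 and 28. These groups also held many cDNAs in the 3′UTR as a whole, and mRNA abundance was not measured here, so its part in the counts was not tested.

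In the LPS receptor and NF-κB list 7 of 14 genes had a site, 5 of them in both replicates (35.7%), and the median share was 3.42% on 8.70% of length. Nfkb1, an NF-κB subunit, had 234 and 76 cDNAs and Rel, another subunit, 53 and 25, after Nfkbia. Of 17 cell cycle genes 8 had a site and 5 had one in both (29.4%), with a median share of 0% on 8.97% of length. They were led by the replication helicase subunit Mcm2 with 128 and 58 cDNAs, the topoisomerase Top2a with 83 and 46 and Rb1, the retinoblastoma protein, with 52 and 18. Of 13 apoptosis regulators 8 had a site and 4 had one in both (30.8%), with a median share of 2.37% on 4.68% of length. Bcl2l11, the death-promoting protein Bim, led with 131 and 56 cDNAs, 15.3% of its pooled 3′UTR total on 2.37% of length, before Cflar (25 and 5) and Apaf1 (13 and 4). Of 17 genes of folding and secretion in the endoplasmic reticulum 9 had a site and 4 had one in both (23.5%), with a median share of 0.277% on 7.17% of length. After Pdia4, Xbp1, the transcription factor of the plasma cell secretory programme, had 50 and 21 cDNAs and Ssr3 28 and 0. Of 15 measured genes of the p53 list 4 had a site near the end (26.7%) and 3 had one in both (20%), with a median share of 0% on 7.49% of length. The 4 were Trp53, Bbc3, Trp53inp1 with 12 and 0 cDNAs and Mdm2, the ubiquitin ligase of p53, with 8 and 1.

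Among the cell type markers, 6 of 8 B cell markers had a site near the end and 4 had one in both replicates, with 364 and 114 cDNAs in sum and a median share of 5.69% on 7.50% of length. Of the T cell markers none had one, of the myeloid markers Lyz2 and Itgam had 4 and 3 pooled cDNAs but none in either replicate alone, and the erythroid markers had no 3′UTR site.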

How the data were processed

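The authors ran iCount on the iCLIP reads, and the submitters' processing notes name Bowtie. Reads were sorted by barcode, PCR duplicates were collapsed with random barcodes, and reads were mapped to mm9 with Ensembl 59. How reads matching several places were handled was not given in the sources used here. Each deposited value counts the unique cDNAs at 1 nucleotide without any scaling, and its sign gives the strand. Per the file headers, the FDR limit was 0.05, estimated by 100 permutations over 15 nt. Sites were called per replicate and on the sum. The authors lifted the summed list to GRCm38, and replicate counts were joined through the row-paired mm9 list, which covered 98.9% of the cDNAs of replicate 1 and 99.1% of replicate 2. A map without the FDR filter was not used.

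The 3′UTRs were those of GENCODE M21 (Ensembl 96) protein-coding transcripts with a complete 3′ end, the longest per gene (16564 genes). Positions in several genes or in coding sequence of the same strand were left out of counts and lengths. Intervals are exact (Clopper-Pearson, 95%) and cover counting error only, and duplicates had been removed with molecular barcodes. The scripts (Python 3.11.15 with scipy 1.17.1, pandas 2.3.3, numpy 2.4.6 and matplotlib 3.10.9) were tested on simulated data. Groups came from the sample titles. The titles number the replicates, and the study describes 2 independent experiments.

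The members and the 15 gene lists (204 genes) were chosen with earlier results of these data known. Named genes are the 20 with most cDNAs near the end, the 10 with the highest share (at least 50 3′UTR cDNAs), the 5 with the lowest share (at least 200), the genes of the 10 sites with most cDNAs, the study's 9 genes and the first 3 of each list. Genes outside these rules were named where a count of them was small. The lists were 3′ end processing factors, RNA-binding regulators, antigen presentation, actin and its regulators, B cell identity and signalling, folding and secretion, cell cycle, p53 and its targets, LPS receptor and NF-κB, apoptosis regulators, the study's genes and markers of B, T, myeloid and erythroid cells. Alternatives changed the window, the minimum count, the weighting, the transcripts, the signal and the replicates.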

Additional observations from a re-analysis of the deposited data

How the results depend on the processing

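The density ratio of the last 100 nt to the remainder of the 3′UTR, 2.22 as reported, was above 1 under all 13 alternatives run. It was 1.35 with the last 50 nt, 1.35 against an even spread within each gene (chosen after seeing the data) and 2.93 with sites of at least 5 cDNAs, and 2.11 to 2.91 with either replicate alone. The U share difference, 8.52 percentage points, was 10.5 with sites of at least 5 cDNAs, 6.80 with each site counted once, 17.3 over 11 nt and 7.00 without the last 20 nt (chosen after seeing the data), and 8.38 to 9.83 with either replicate alone. The share upstream of the signal, 99.1%, was 99.5% and 99.8% with sites of at least 2 and at least 5 cDNAs and 99.1% to 99.3% with either replicate alone, and 99.04% without the 10 genes with most cDNAs, an alternative also chosen after seeing the data. Genes found in both replicates numbered 705 rather than 1175 with at least 5 cDNAs in each. The share of sites called in both, 20.7%, was 48.8% and 85.5% with at least 2 and at least 5 pooled cDNAs, since sites with 1 cDNA then drop out. In all, 20 of 35 values moved by less than the spread between replicates or, for counts, by under 1.5 times. The density ratio and the U share difference kept their direction under every alternative. Limiting genes to the 3223 whose complete transcripts all end within 25 nt gave a ratio of 2.39 and a median of 61 nt from the end. No paired analysis was possible because the series holds 1 group and no second group shares its replicate numbers. Depth limits the comparison of single sites, as most rest on 1 cDNA, and neither mRNA abundance nor the use of 3′ ends was measured.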
